A study of Homo sapiens with 24 samples.

Results

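The STAG3L genes and the GTF2IRD2 pair are duplicated genes of chromosome 7, most of them near-identical to another copy, and the 6 of them listed in the deposited count table were followed here among its 23354 genes. They are STAG3L1, STAG3L2, STAG3L3, STAG3L4, GTF2IRD2 and GTF2IRD2B. The set was selected on the response at 24 h, since 2 of its members had risen in all 4 comparisons of treated with untreated cells at that time. The 24 h changes of the members against untreated cells are therefore given as a description. Whether each passed the threshold is stated there only because the selection used it, and nothing is read from it. The question asked of the other measurements was whether all copies moved together.

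RNA was sequenced from 2 established acute myeloid leukemia lines, MV4-11 and KG-1a, both labelled wild type. Cells were left untreated or were given 1 μM 8CA (8-chloro-adenosine) or 1 μM 8AA (8-amino-adenosine), analogs of adenosine that carry a chlorine or an amino group on the adenine base, for 8 h or 24 h. This made 12 groups of 2 libraries, 24 in all. The labels do not say that the 2 libraries of a group came from separate cultures, so p-values measure only the spread between these libraries, which may be technical.

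STAG3 encodes a subunit of the cohesin ring that is used in meiosis, and the STAG3L genes are partial copies of it, described in the table as pseudogenes. STAG3L1, STAG3L2 and STAG3L3 lie around the region deleted in Williams-Beuren syndrome, and STAG3L4 lies apart from them on chromosome 7. GTF2IRD2 and GTF2IRD2B belong to the TFII-I family of transcription factors, with GTF2I and GTF2IRD1, and carry a C-terminal part derived from a transposase. Because the copies arose by duplication of whole blocks of DNA, a short read from one often matches another letter for letter, and the count assigned to each copy then depends on how the counting program treated such reads. No source used here says how reads with several matches were treated, whether strand was used or which annotation was counted.

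How alike the copies are was measured on their longest transcripts in GENCODE release 29 (GRCh38). GTF2IRD2 and GTF2IRD2B matched at 99.6% of 3558 aligned bases, with 15 substitutions. STAG3L2 and STAG3L3 matched at 99.5% of 1677 aligned bases, and STAG3L1 matched STAG3L2 at 99.3% of 708 bases and STAG3L3 at 99.8% of 583 bases. STAG3L4 was the distant copy, for which at most 142 bases aligned to another member.

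Each copy held stretches that were present letter for letter in another gene. Over all annotated transcripts of a gene, pooled, 71.6% of the 100-base stretches of GTF2IRD2B were also present in another gene, against 51.2% for GTF2IRD2. Among the STAG3L copies the share was 64.5% for STAG3L1, 59.0% for STAG3L3, 45.1% for STAG3L2 and 5.48% for STAG3L4. The gene sharing most with STAG3L1 and with STAG3L2 was STAG3L3, and GTF2IRD2B held 3723 of the 100-base stretches of GTF2IRD2, while the pseudogene GTF2IRD2P1 held 1611.

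From each of 2 pairs the 120-base window with the most differences within a single exon was chosen, with the bases that differ in capitals. For the GTF2IRD2 pair it had to lie in coding sequence. Other such windows of a pair differ by as many letters or fewer. The windows of STAG3L1 (plus strand, chr7:75359203-75359322) and STAG3L2 (minus strand, chr7:74890475-74890594) lie in exon 1 of transcripts with no annotated coding sequence (GRCh38). Counted from 1 at the 5′ end of the window, with the first gene as the reference, they differ by C77G, A97G and C120T.
STAG3L1: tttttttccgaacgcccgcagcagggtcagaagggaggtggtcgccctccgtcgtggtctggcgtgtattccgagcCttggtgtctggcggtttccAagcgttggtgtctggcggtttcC
STAG3L2: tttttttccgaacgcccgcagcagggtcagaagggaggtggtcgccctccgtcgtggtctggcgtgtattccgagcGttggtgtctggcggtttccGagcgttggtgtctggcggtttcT

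The windows of GTF2IRD2 (minus strand, chr7:74797677-74797796) and GTF2IRD2B (plus strand, chr7:75148163-75148282) lie in the coding part of exon 16 and hold 5 of the 15 substitutions of the pair, C75T, A88G, C100G, G110A and A120G.
GTF2IRD2: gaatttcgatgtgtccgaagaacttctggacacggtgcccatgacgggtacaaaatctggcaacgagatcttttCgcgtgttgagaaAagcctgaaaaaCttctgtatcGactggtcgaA
GTF2IRD2B: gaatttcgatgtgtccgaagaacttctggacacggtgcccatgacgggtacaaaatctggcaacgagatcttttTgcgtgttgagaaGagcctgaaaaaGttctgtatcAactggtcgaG

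In the deposited table the copies have other coordinates, for which no build is named. It lists STAG3L4 at chr7:66767625-66786513, STAG3L3 at chr7:72438647-72476448, GTF2IRD2 at chr7:74210484-74267841, STAG3L2 at chr7:74298263-74306731, GTF2IRD2B at chr7:74508347-74565623 and STAG3L1 at chr7:74988429-75026252. Only 2.26% of the 21885 genes found in both started within 100 bases of their GRCh38 position, so sequences were matched by symbol. Some listed genes overlap the members, namely TRIM73 on STAG3L1 and FKBP6, NSUN5P2 and LOC541473 on STAG3L3, and the merged spans of GTF2IP4 and PMS2P2 cover STAG3L2, GTF2IRD2 and GTF2IRD2B.

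Libraries held between 18633963 and 24520078 counted reads. All 6 members passed the filter on low counts in both lines. STAG3L2 had 473 to 1381 reads per library and STAG3L3 had 179 to 627, whereas GTF2IRD2 had 23 to 79, GTF2IRD2B 32 to 106 and STAG3L1 33 to 123, so that the changes of these last 3 carry the widest errors. Of 8 myeloid and progenitor markers, 7 reached 1 CPM (reads per 1000000 of a library total scaled by TMM) in every MV4-11 library and 4 in every KG-1a library. Of 9 markers of other cell types, PECAM1 reached 1 CPM in every library and the T cell genes CD3E and CD3D did so in every KG-1a library, with a summed level of the 9 between 210 and 341 CPM in KG-1a and between 18.5 and 30.3 CPM in MV4-11. Their part in the differences between the lines was not tested.

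In untreated cells the reads assigned to the copies stood at levels far apart, and in the same order in both lines. Per kilobase of the exon length in the table, STAG3L2 stood at 10.2 ± 0.393 CPM in MV4-11 and 13.5 ± 0.824 in KG-1a (mean ± SD, n = 4 libraries each). STAG3L4 followed with 3.23 ± 0.274 and 3.20 ± 0.185 CPM per kb, and STAG3L3 with 1.86 ± 0.186 and 2.38 ± 0.116. STAG3L1 at 0.468 ± 0.0635 and 0.469 ± 0.0616, GTF2IRD2B at 0.363 ± 0.0582 and 0.381 ± 0.0719 and GTF2IRD2 at 0.301 ± 0.0566 and 0.329 ± 0.0631 CPM per kb came last. Neighbours in the order were separated in all libraries down to STAG3L1, and from there on they overlapped, STAG3L1 with GTF2IRD2B and GTF2IRD2B with GTF2IRD2. The exon length includes shared sequence, and the part of 100-base stretches also found in another gene ran from 5.48% (STAG3L4) to 71.6% (GTF2IRD2B). The order may therefore depend on how many reads could be assigned to each copy, which was not tested. The other genes of both families lay above and below the copies. GTF2I stood at 24.4 ± 1.07 CPM per kb in MV4-11 and 40.2 ± 0.777 in KG-1a, and STAG1 at 9.97 ± 0.356 and 20.5 ± 1.22. The cohesin subunit STAG2 stood at 37.7 ± 3.55 and 1.66 ± 0.127 CPM per kb, GTF2IRD1 at 5.22 ± 0.337 in MV4-11, and the parent gene STAG3 at 0.691 ± 0.202 in MV4-11 and between 0 and 3 reads in each untreated KG-1a library.

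STAG3L2 and STAG3L3 were lower in untreated MV4-11 than in untreated KG-1a, and the other copies did not pass the test. STAG3L2 measured 24.7 to 27.0 CPM in the 4 MV4-11 libraries and 32.2 to 36.8 in the 4 KG-1a libraries, a log2 difference of -0.40 (SE 0.06, adjusted p = 1.24e-06). STAG3L3 measured 9.60 to 11.8 and 12.5 to 14.1 CPM, a log2 difference of -0.36 (SE 0.10, adjusted p = 0.0019). The 4 libraries of one line lay apart from those of the other for both genes. The differences of the remaining 4 copies lay between -0.10 and 0.01, with intervals that reached at most from -0.52 to 0.32. Of all genes tested between the lines, 87.4% were called at an adjusted p below 0.05, so that differing lines were the rule and the level of STAG3L1, STAG3L4, GTF2IRD2 and GTF2IRD2B fell among the minority not called. Among the relatives, STAG2 stood at 245 ± 23.1 CPM in MV4-11 and 10.8 ± 0.828 in KG-1a, and GTF2IRD1 at 33.3 ± 2.14 CPM in MV4-11 and at 0 reads in all 12 KG-1a libraries.

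**Figure D1:**
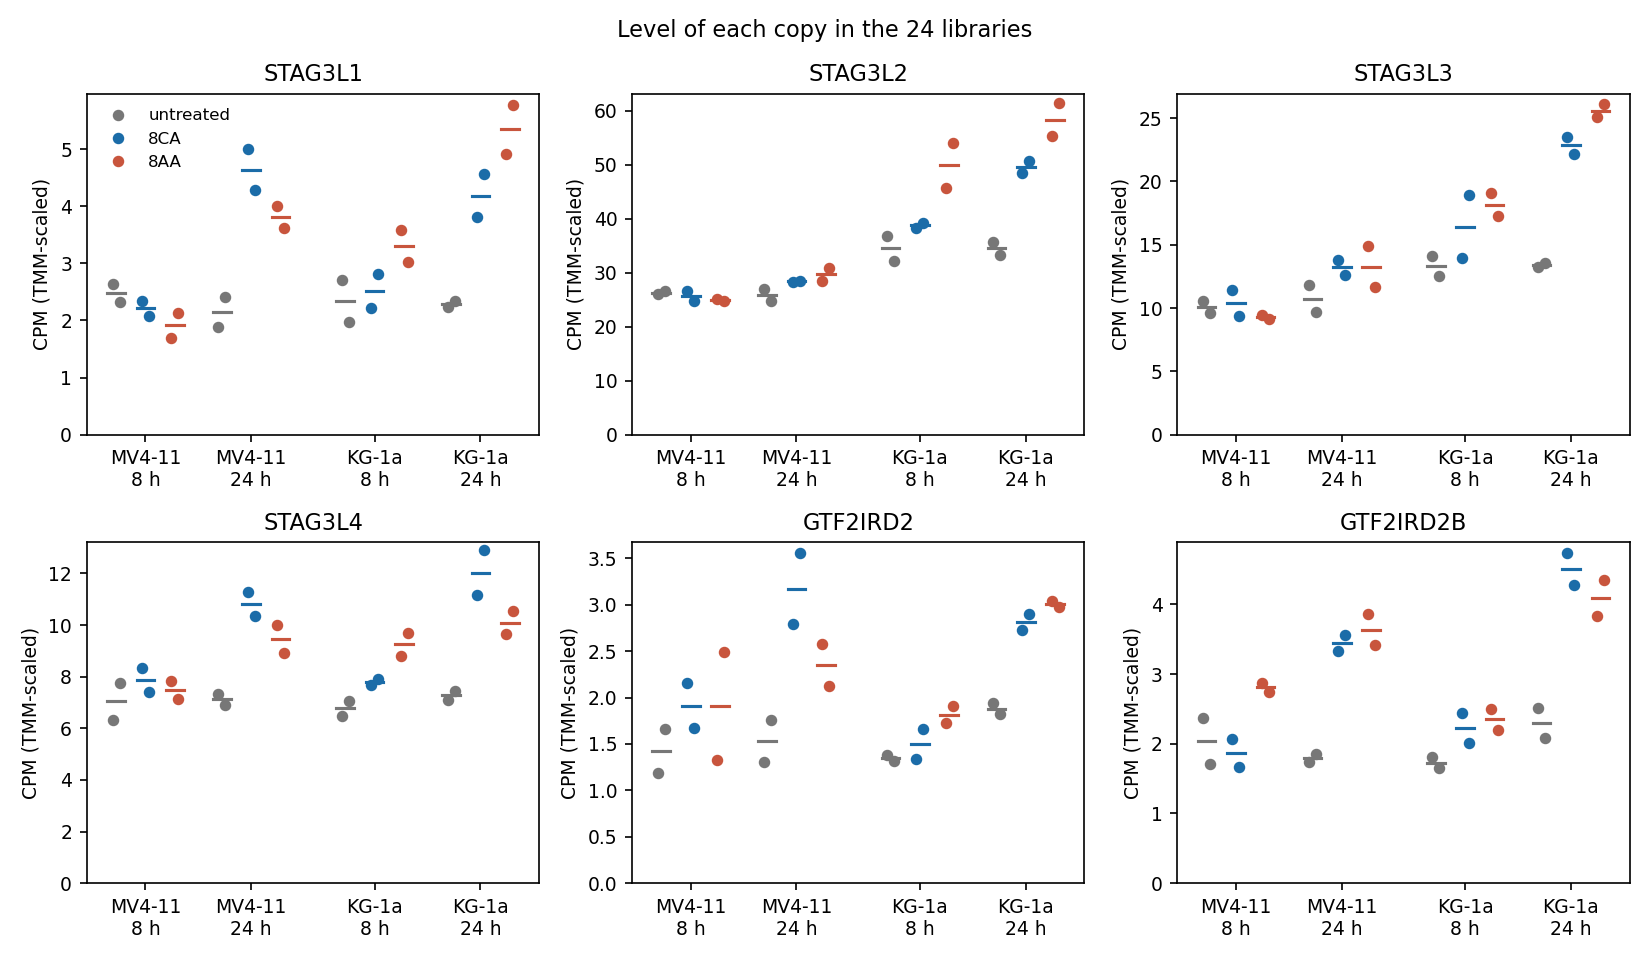
Level of each copy (y axis, TMM-scaled CPM from 0) in the 24 libraries, grouped along the x axis by cell line and time and coloured by treatment, with 1 point per library and a bar at the mean of 2. At 24 h the treated libraries stand above the untreated ones for STAG3L1 and GTF2IRD2B in both lines, while STAG3L2 in MV4-11 stays between 24.7 and 30.8 CPM at that time.

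At 8 h, the time that played no part in choosing the members, all 6 copies had log2 fold changes above 0 with 8AA in KG-1a, and 3 of them passed the test. Of all genes tested there, 51.0% had changes above 0. The changes of the copies lay between 0.44 and 0.54. Their 95% intervals ran from -0.02 to 0.90 for GTF2IRD2 and from 0.08 to 0.95 for STAG3L1. Both treated libraries were above both untreated libraries for every copy. The share of all genes separated in this way was not counted, so nothing is read from that separation. Those called were STAG3L2, STAG3L3 and STAG3L4, against 16.7% of all genes called higher in that comparison. The median over the members was 0.46, and over all genes tested it was 0.01.

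STAG3L2 went from 36.8 and 32.2 CPM in the untreated KG-1a libraries to 45.6 and 54.1 with 8AA (log2 fold change 0.54, SE 0.09, adjusted p = 0.000193). STAG3L3 went from 14.1 and 12.5 to 19.1 and 17.2 CPM (0.46, SE 0.12, adjusted p = 0.00693). STAG3L4 went from 6.48 and 7.07 to 8.81 and 9.70 CPM (0.46, SE 0.12, adjusted p = 0.0060). These are the copies with the most reads, and their groups did not overlap. STAG3L2 kept its call with each of the 4 libraries left out. STAG3L3 lost its call without untreated replicate B (0.37, adjusted p = 0.0838) or 8AA replicate A (0.39, adjusted p = 0.0692), and STAG3L4 without 8AA replicate B (0.38, adjusted p = 0.0667).

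The other copies had wider errors and missed the threshold. STAG3L1 measured 2.71 and 1.98 CPM untreated and 3.58 and 3.02 with 8AA (0.51, SE 0.20, adjusted p = 0.0635). GTF2IRD2 measured 1.38 and 1.32 CPM untreated and 1.73 and 1.91 with 8AA (0.44, SE 0.22, adjusted p = 0.156). GTF2IRD2B measured 1.81 and 1.65 CPM untreated and 2.5 and 2.20 with 8AA (0.45, SE 0.21, adjusted p = 0.102). None of these groups overlapped either. STAG3L1 was called with library size scaling (adjusted p = 0.049), with no filter on low counts (0.0342) and without untreated replicate A (0.0412).

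In the other 8 h comparisons no copy was called by edgeR or by the DESeq2 Wald test. DESeq2 gave no adjusted p to at least STAG3L1 and GTF2IRD2 with 8CA in MV4-11, so it could not call them there. With 8CA in KG-1a all 6 changes were above 0, from 0.11 to 0.38, as were 48.4% of those of all genes. STAG3L3 alone had an unadjusted p below 0.05, in a comparison where 0.700% of genes were called higher. With 8CA in MV4-11 they ran from -0.17 to 0.41, with 3 of 6 above 0, none under an unadjusted p of 0.05 and 4.58% of genes called higher. With 8AA in MV4-11 they ran from -0.39 for STAG3L1 to 0.43 for GTF2IRD2B, the copy with an unadjusted p below 0.05, against 13.6% of genes called higher.

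In MV4-11 at 8 h with 8AA the copies lay on both sides of their untreated level. STAG3L1 measured 2.63 and 2.33 CPM untreated and 1.69 and 2.14 with 8AA, and STAG3L2 26.1 and 26.5 against 25.2 and 24.8, so that both treated libraries were the lower ones. GTF2IRD2B measured 2.37 and 1.71 CPM untreated and 2.87 and 2.75 with 8AA, both higher. GTF2IRD2 could not be placed, with 1.33 and 2.49 CPM in the 8AA libraries around 1.19 and 1.66 in the untreated ones. None of these differences passed the test.

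The 8 h response to 8AA of STAG3L2 differed between the lines. The change in KG-1a taken from that in MV4-11 left a log2 value of -0.61 (SE 0.12, adjusted p = 0.00148, edgeR fit of all 24 libraries), in a comparison where 11.1% of genes were called. STAG3L1 (-0.86, SE 0.30, adjusted p = 0.0654) and STAG3L3 (-0.57, SE 0.20, adjusted p = 0.0651) missed the threshold, as did STAG3L4 (-0.37, SE 0.17, adjusted p = 0.198). For GTF2IRD2 and GTF2IRD2B the differences were 0.01 (95% interval -0.80 to 0.82) and 0.02 (-0.57 to 0.61). For 8CA no copy differed between the lines by edgeR or DESeq2, with none under an unadjusted p of 0.05 and 1.15% of genes called.

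**Figure D2:**
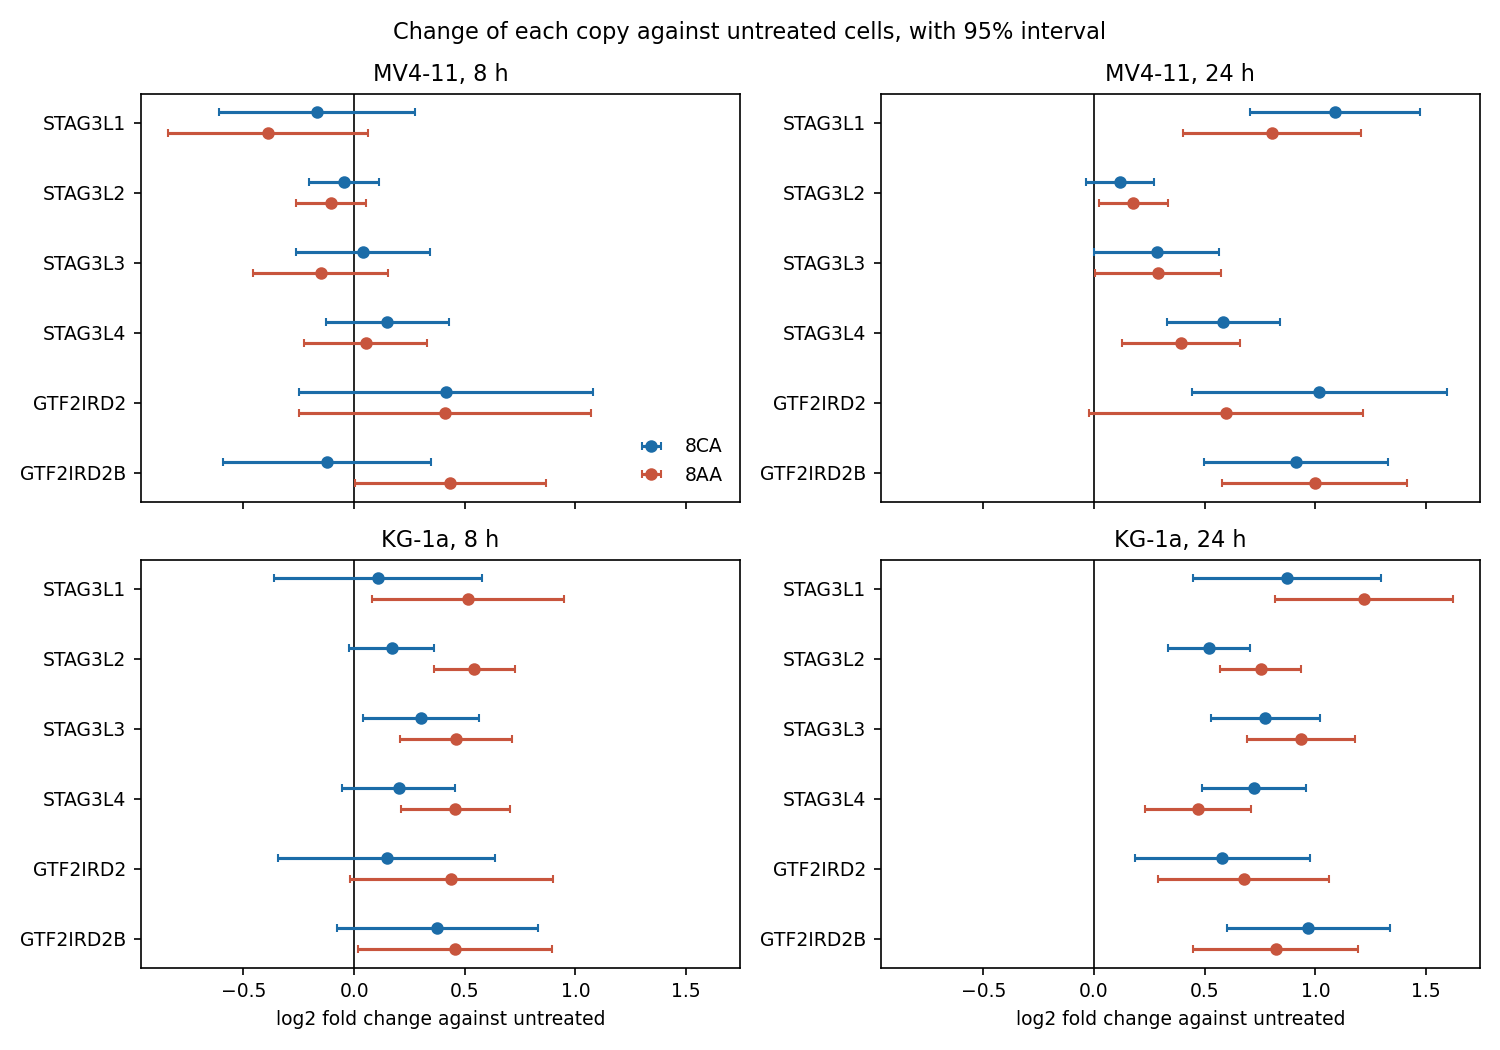
Log2 fold change against untreated cells of the same line and time (x axis) for each copy (y axis), with the 95% interval of the edgeR fit, 8CA in blue and 8AA in red, in 4 panels by line and time. At 8 h the 6 copies lie between 0.44 and 0.54 for 8AA in KG-1a and on both sides of 0 in MV4-11, and at 24 h all lie above 0.

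At 24 h the mean of each of the 6 copies was above its untreated level with both drugs in both lines, by unequal factors. As these comparisons chose the set, their values are a description. Of all genes tested, 50.3% to 51.4% had changes above 0 in them. In MV4-11 the copies called higher numbered 4 for 8CA and 3 for 8AA, where 21.2% and 13.9% of all genes were called higher. In KG-1a they numbered 6 for either drug, where 23.4% (8CA) and 25.4% (8AA) of all genes were. In the fit used here, with no cut-off on fold change, STAG3L1, STAG3L4 and GTF2IRD2B were called in all 4 comparisons, where the selection had counted 2 members. STAG3L2 and STAG3L3 were not called with either drug in MV4-11, nor GTF2IRD2 with 8AA in MV4-11. The count of 3 fell to 1 without MV4-11 untreated replicate A or 8AA replicate A. Just inside the threshold lay STAG3L4 with 8AA in MV4-11, at a log2 fold change of 0.39, and just outside it STAG3L2 in the same comparison, at 0.18.

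In MV4-11 STAG3L1 went from 1.88 and 2.41 CPM in the untreated libraries to 4.99 and 4.28 with 8CA, a log2 fold change of 1.09 (SE 0.18). With 8AA it measured 4.0 and 3.61 CPM there (0.80, SE 0.19). In KG-1a it measured 2.23 and 2.35 CPM untreated, 3.80 and 4.57 with 8CA (0.87, SE 0.20) and 4.92 and 5.77 with 8AA (1.22, SE 0.19), the largest of its 4 changes at this time. The 8AA libraries of KG-1a at 24 h stood farther apart than those of any other group, with a chi-square statistic of 12.3 per degree of freedom against 1.43 to 5.20. The treated libraries stood above the untreated ones in each case, and the 8 h levels of treated MV4-11 cells, 1.69 to 2.34 CPM, had been those of untreated cells or lower.

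The log2 fold changes of GTF2IRD2B lay between 0.82 and 1.00 in the 4 comparisons. It measured 1.74 and 1.86 CPM in untreated MV4-11 libraries, 3.33 and 3.56 with 8CA (log2 fold change 0.91, SE 0.20) and 3.86 and 3.42 with 8AA (1.00, SE 0.20). In KG-1a it measured 2.52 and 2.09 CPM untreated, 4.74 and 4.28 with 8CA (0.97, SE 0.17) and 3.84 and 4.35 with 8AA (0.82, SE 0.17). Its partner GTF2IRD2 measured 1.30 and 1.76 CPM in untreated MV4-11 libraries, 2.79 and 3.56 with 8CA (1.02, SE 0.27) and 2.57 and 2.13 with 8AA (0.60, SE 0.29). In KG-1a GTF2IRD2 measured 1.94 and 1.83 CPM untreated, 2.73 and 2.90 with 8CA (0.58, SE 0.19) and 3.04 and 2.98 with 8AA (0.68, SE 0.18). Neither gene had a treated library within the untreated range at 24 h. With the DESeq2 Wald test GTF2IRD2 was called in 1 of the 4 comparisons, 8CA in MV4-11.

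STAG3L2 and STAG3L3 had larger changes in KG-1a than in MV4-11, a difference between the lines that was not tested at 24 h. In KG-1a STAG3L2 measured 35.7 and 33.3 CPM untreated, 48.4 and 50.6 with 8CA (0.52, SE 0.09) and 55.2 and 61.3 with 8AA (0.75, SE 0.09). In MV4-11 it measured 27.0 and 24.7 CPM untreated, 28.3 and 28.5 with 8CA (0.12, SE 0.07) and 28.5 and 30.8 with 8AA (0.18, SE 0.07). The MV4-11 interval for 8CA ran from -0.04 to 0.27, and the KG-1a interval from 0.33 to 0.71. STAG3L3 had log2 fold changes of 0.28 (SE 0.13) and 0.29 (SE 0.13) in MV4-11 with 8CA and 8AA, and of 0.77 (SE 0.12) and 0.93 (SE 0.11) in KG-1a. STAG3L4, the distant copy, had 0.58 (SE 0.12), 0.39 (SE 0.12), 0.72 (SE 0.11) and 0.47 (SE 0.11) in the same order.

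In bulk RNA a rise of a gene's share cannot be told apart from a fall of other RNA per cell or a change in which cells are present. The median change of all genes at 24 h was between 0.00 and 0.01 with TMM scaling, and with library size scaling it rose by at most 0.09. The members' changes rose with it, the lowest from 0.12 to 0.17 for 8CA in MV4-11 and from 0.47 to 0.56 for 8AA in KG-1a. Library size scaling moved the median of all genes upwards, so it could only raise the members. Neither scaling measures RNA per cell or which cells were present, and these were not tested. The split of called genes into higher and lower was less stable, since in 6 of the 8 comparisons the share called higher was 44.2% to 48.8% with TMM and 58.2% to 64.5% with library size scaling.

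8AA and 8CA were compared directly at the same dose and time, in 4 comparisons of the 6 copies. STAG3L2 in KG-1a was higher with 8AA than with 8CA at 8 h, 45.6 and 54.1 CPM against 38.3 and 39.2 (log2 difference 0.37, SE 0.09, adjusted p = 0.00377), and at 24 h, 55.2 and 61.3 against 48.4 and 50.6 (0.23, SE 0.08, adjusted p = 0.0325). The treated libraries did not overlap at either time, and 30.4% and 42.0% of all genes were called in these comparisons in either direction. At 8 h the gene was no longer called once 8AA replicate B was left out (0.24, adjusted p = 0.0841). The 24 h call was lost with the DESeq2 Wald test (adjusted p = 0.0516) and without 8CA replicate A (0.20, adjusted p = 0.174), 8CA replicate B (0.26, 0.0752) or 8AA replicate B (0.16, 0.107). The 24 h comparison uses the same treated libraries as the comparisons that chose the set.

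STAG3L4 lay the other way at 24 h in KG-1a, with 9.64 and 10.5 CPM with 8AA and 11.2 and 12.9 with 8CA (-0.26, SE 0.10, adjusted p = 0.0544), and was called without 8CA replicate A (adjusted p = 0.0366) or 8AA replicate B (0.0346). In MV4-11 no copy was called between the drugs by edgeR or DESeq2, against 6.66% of genes at 8 h and 21.2% at 24 h. GTF2IRD2B at 8 h had the one unadjusted p below 0.05 there, with 2.87 and 2.75 CPM for 8AA and 2.06 and 1.67 for 8CA (0.56, SE 0.21, adjusted p = 0.125). At 24 h it differed by 0.08 (95% interval -0.28 to 0.44) and STAG3L3 by 0.01 (-0.26 to 0.28). For GTF2IRD2 the interval was -0.95 to 0.11, too wide to say whether the drugs acted alike.

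The share of a copy in the reads of its family is a ratio within 1 library and needs no scaling between libraries. GTF2IRD2B took 48.9% to 68.3% of the reads of GTF2IRD2 and GTF2IRD2B over the 24 libraries, with a median of 56.2%. The exact Clopper-Pearson 95% interval of the lowest share, 45 of 92 reads, was 38.3% to 59.6%, and that of the highest, 56 of 82 reads, was 57.1% to 78.1%, so that a single library fixed the share only loosely. These intervals cover counting error only. The untreated lines did not differ detectably at this depth, with 56.4% ± 7.41 in MV4-11 and 55.5% ± 1.54 in KG-1a (mean ± SD, n = 4 each, exact two-sided permutation test over 70 arrangements, p = 0.914, smallest possible p 0.0286). Nor did treated and untreated libraries at 8 h, with 56.5% ± 6.97 and 57.4% ± 6.70 (8 and 4 libraries, exact two-sided permutation test within line over 225 arrangements, p = 0.822). At 24 h, where no test was made, the treated shares were 50% to 61.6% in MV4-11, around an untreated 51.3% to 57.1%, and 55.8% to 63.5% in KG-1a, where the untreated ones were 53.3% and 56.5%.

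The STAG3L reads were divided less evenly, and at 24 h the mean shares of treated and untreated libraries differed in both lines, without a test. The 24 h shares and sums rest on the values that chose the set, so they are a description. STAG3L2 held 48.5% to 64.3% of the reads of the 4 STAG3L copies over all libraries, STAG3L3 20.5% to 27.5%, STAG3L4 10.2% to 19.3% and STAG3L1 3.56% to 8.55%. In MV4-11 at 24 h the share of STAG3L1 was 4.72% ± 1.14 untreated, 8.11% ± 0.613 with 8CA and 6.77% ± 0.279 with 8AA (SD, n = 2), and that of STAG3L2 was 56.4% ± 0.220, 49.8% ± 1.83 and 52.9% ± 4.55. In KG-1a at 24 h STAG3L1 had 3.98% ± 0.226 untreated, 4.72% ± 0.487 with 8CA and 5.37% ± 0.265 with 8AA. STAG3L2 had 60.0% ± 1.77, 55.9% ± 0.268 and 58.7% ± 0.633 there, and STAG3L4 had 12.7% ± 0.669, 13.6% ± 1.01 and 10.2% ± 0.00274. Summing each family into 1 feature gave log2 fold changes at 24 h of 0.27 to 0.79 for the STAG3L reads and of 0.76 to 0.96 for the GTF2IRD2 reads, beside 0.12 to 0.75 for STAG3L2 alone.

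**Figure D3:**
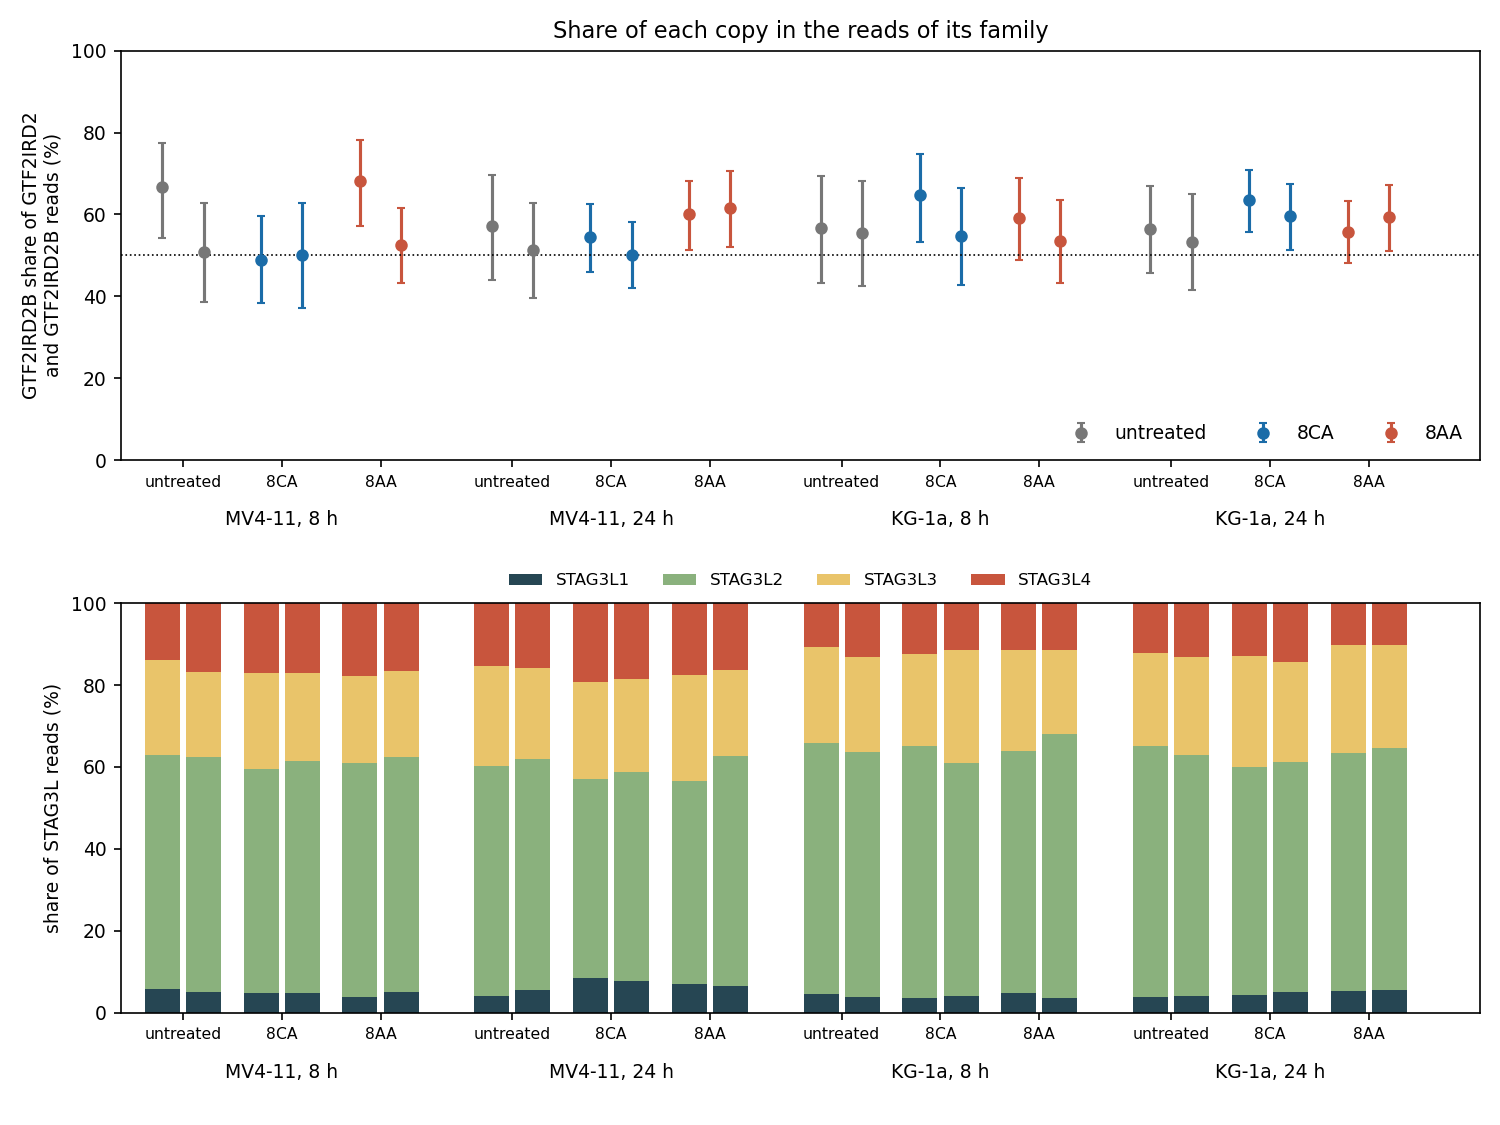
Upper panel, share of GTF2IRD2B in the reads of GTF2IRD2 and GTF2IRD2B (y axis, %) in each library by line, time and treatment (x axis), with exact 95% intervals and a dotted line at 50%. Lower panel, share of each STAG3L copy in the reads of all 4 (y axis, %), 1 bar per library, where STAG3L2 holds 48.5% to 64.3%.

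How far the 8 treated against untreated changes of the copies ran in parallel was measured by the root mean square difference of their log2 fold changes. These comparisons share their untreated libraries in pairs, and 4 of them chose the set, so the distances are a description. STAG3L2 and STAG3L3 were nearest, at 0.15, and 25 of the 11479 other genes tested in both lines lay nearer to STAG3L2 than that. GTF2IRD2 and GTF2IRD2B were 0.29 apart, with 247 genes nearer to GTF2IRD2. The SE of a single change was 0.17 to 0.31 for this pair and 0.07 to 0.14 for STAG3L2 and STAG3L3. Distances therefore grow with the error of genes with few reads, and the part due to error was not measured. STAG3L2 and GTF2IRD2B were farthest apart, at 0.48, farther than 57.5% of the other genes lay from STAG3L2. STAG3L1 lay 0.35 from GTF2IRD2B, 0.38 from STAG3L3, with which it shares the most sequence, and 0.47 from STAG3L2.

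The 5 genes with the pattern most like that of GTF2IRD2B over these 8 comparisons were SLC2A11 (root mean square difference 0.18), VMAC (0.18), FAM229A (0.21), WBP1 (0.21) and CCDC18-AS1 (0.22). Those most like STAG3L1 were FAM229A (0.23), HSF4 (0.27), LOC100130950 (0.28), SMG1P5 (0.30) and DUSP5P1 (0.31). None of them is on chromosome 7, and all 6 distances of STAG3L1 to these or to GTF2IRD2B lay between 0.23 and 0.35.

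The genes around the copies had medians between -0.26 and 0.18 at 24 h. The duplicated neighbours, pseudogenes and gene copies of the same blocks, numbered 32 in the table, and the filter left 23 of them in MV4-11 and 18 in KG-1a. At 24 h 5 (8CA) and 3 (8AA) of 23 were called higher in MV4-11 (21.7% and 13.0%, beside 21.2% and 13.9% of all genes), and 8 and 7 of 18 in KG-1a (44.4% and 38.9%, beside 23.4% and 25.4%), with medians of 0.10, 0.00, 0.15 and 0.18. The genes of the Williams-Beuren region (23 in the table, 14 tested in each line, 3 of them also among the duplicated neighbours) had medians of -0.06, -0.09, -0.06 and -0.26, and 8AA in KG-1a had 10 of them lower and 2 higher, where 26.6% of all genes were called lower. Of the 43 genes within 500 kb of a member, the filter left 28 for MV4-11 and 23 for KG-1a. None of those tested passed the test of edgeR or DESeq2 with 1 direction throughout the 4 comparisons of a time point, and at an unadjusted p below 0.05 a single gene was, lower at 8 h. At 8 h with 8AA in KG-1a, 5 of the 18 duplicated neighbours were called higher (27.8%, beside 16.7% of all genes) and 3 lower. The median of the duplicated neighbours there was 0.07, beside 0.46 for the members.

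Genes described as pseudogenes as a whole had medians above 0 against untreated cells. Of 897 such genes besides the members, a group added after the files had been seen, the filter left 271 in MV4-11 and 284 in KG-1a. At 24 h 81 and 62 of 271 were called higher with 8CA and 8AA in MV4-11 (29.9% and 22.9%, beside 21.2% and 13.9% of all genes), and 8 and 2 lower. In KG-1a 92 and 116 of 284 were called higher (32.4% and 40.8%, beside 23.4% and 25.4% of all genes), and 18 and 16 lower. Of all genes, 22.7% and 15.3% were called lower in MV4-11 and 24.0% and 26.6% in KG-1a. Their medians were 0.25, 0.26, 0.25 and 0.34, beside medians of 0.75, 0.49, 0.75 and 0.79 for the members, which were chosen for their 24 h values. At 8 h with 8AA in KG-1a, 68 of 284 (23.9%, beside 16.7% of all genes) were called higher, with a median of 0.13. At 8 h in MV4-11 their medians, 0.05 with 8CA and 0.07 with 8AA, were above those of the members, -0.00292 and -0.03.

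**Figure D4:**
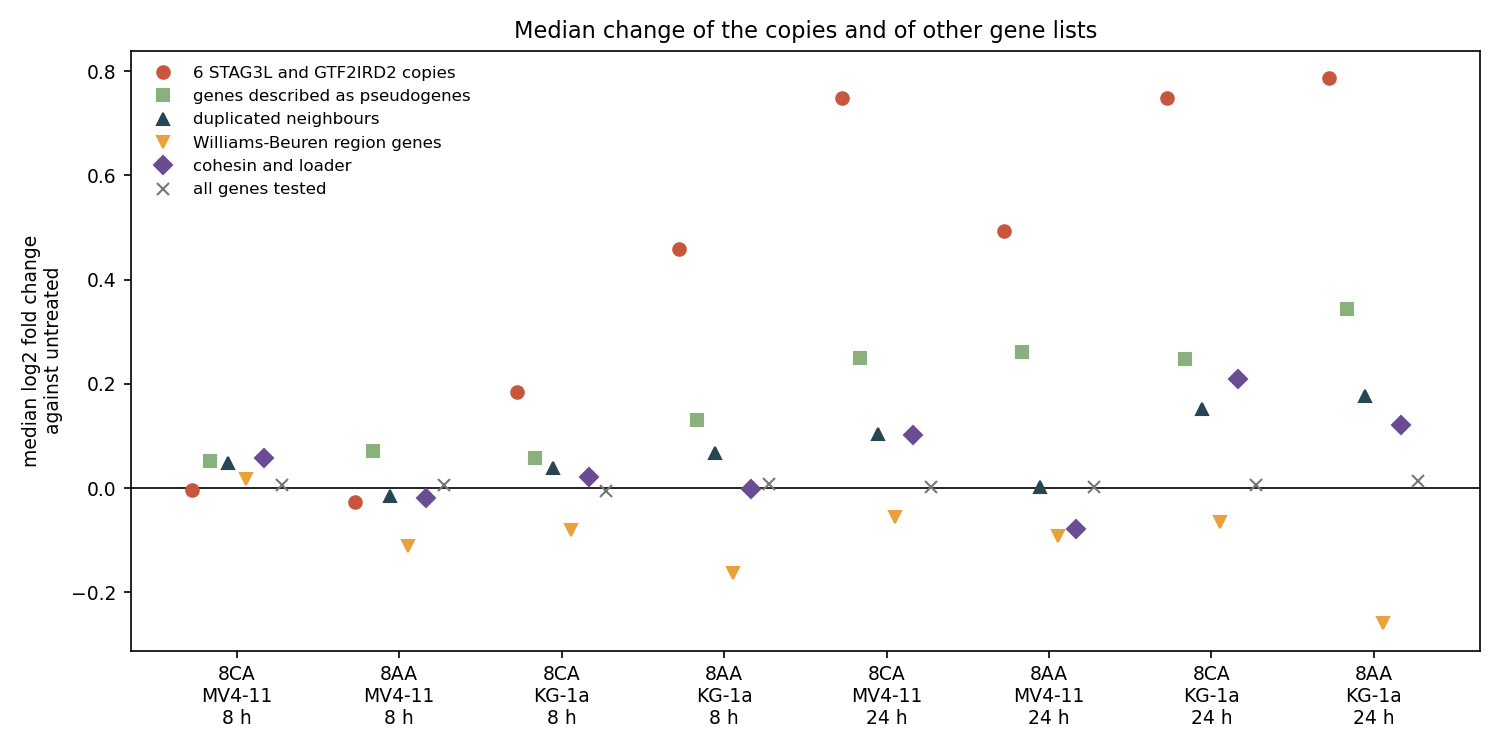
Median log2 fold change against untreated cells (y axis) of the 6 copies, of other gene lists and of all genes tested, for the 8 comparisons (x axis). The medians of the copies, 0.49 to 0.79 at 24 h, stand above those of pseudogenes as a whole (0.25 to 0.34), and those of the Williams-Beuren region genes lie below 0 at 24 h.

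The parent and sister genes, which are not part of the set, were tested in the same fits. STAG3 in MV4-11 was higher with 8AA at 8 h (0.69, SE 0.20, adjusted p = 0.0161), and at 24 h with 8CA (0.65, SE 0.16, adjusted p = 0.00467) and 8AA (0.85, SE 0.16, adjusted p = 0.00112). It was too low to be tested in KG-1a, where STAG3L1, STAG3L2 and STAG3L3 were higher at 24 h with 1 to 10 STAG3 reads per library. STAG1 was higher at 24 h with 8CA in MV4-11 (0.39, SE 0.05) and KG-1a (0.45, SE 0.05). With 8AA STAG1 was not called in MV4-11 (-0.08, adjusted p = 0.278) or in KG-1a (0.12, adjusted p = 0.0530). STAG2 was higher at 24 h with 8CA in MV4-11 (0.34, SE 0.06) and KG-1a (0.38, SE 0.11). With 8AA STAG2 was higher in KG-1a (0.66, SE 0.11) and was not called in MV4-11 (-0.11, SE 0.06). GTF2I, the founding member of the TFII-I family, was lower at 24 h in KG-1a with 8CA (-0.16, SE 0.04, adjusted p = 0.00471) and 8AA (-0.20, SE 0.04, adjusted p = 0.000729), where both GTF2IRD2 copies were higher. In MV4-11 at 24 h GTF2I was higher with 8AA (0.13, SE 0.05, adjusted p = 0.0462) and was not called with 8CA (0.06, SE 0.05, adjusted p = 0.340), while GTF2IRD1 was higher with 8CA (0.36, SE 0.07, adjusted p = 0.000743) and was not called with 8AA (0.08, SE 0.07, adjusted p = 0.449). Of 18 cohesin and loader genes in the table, the filter left 17 in MV4-11 and 15 in KG-1a. At 24 h 7 were called higher and 3 lower with 8CA in MV4-11, 1 and 6 with 8AA there, 8 and 3 with 8CA in KG-1a and 6 and 3 with 8AA. In the same order, 21.2%, 13.9%, 23.4% and 25.4% of all genes were called higher and 22.7%, 15.3%, 24.0% and 26.6% lower.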

How the data were processed

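RNA of 24 libraries (2 per group, 12 groups) was compared from the counts deposited by the authors, whole numbers of reads per gene that are not normalized. The submitters' processing notes name Trimmomatic, STAR 2.6.0, HTSeq 0.11.1 and edgeR, and the builds hg19 and hg38 with no role. All 24 count columns were matched to a library by title, and the hours of untreated libraries come from titles alone. No column of other samples was present.

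Genes were filtered with filterByExpr (minimum count 10), scaled by TMM and tested with the quasi-likelihood test of edgeR 4.0.16 (R 4.3.3), with 1 coefficient per group, in the 12 libraries of a line (12800 genes in MV4-11, 12711 in KG-1a) or, between lines, in all 24 (14055). P-values were adjusted by Benjamini-Hochberg over all genes tested, and genes below 0.05 were called. The scripts were tested on simulated data. Total counts of 18633963 to 24520078 per library gave the copies with fewest reads 23 to 123. In every pair the chi-square statistic over genes with at least 20 counts was between 1.43 and 12.3 per degree of freedom, so no library repeated the counts of its partner. The statistic cannot tell a second preparation of the same RNA from a separate culture. The highest value was that of 8AA in KG-1a at 24 h. Identity and shared stretches were computed from GENCODE release 29 transcripts (GRCh38).

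Named genes were the 6 members, STAG1, STAG2, STAG3, GTF2I, GTF2IRD1 and the 5 genes nearest to GTF2IRD2B and to STAG3L1. Neighbours within 500 kb were counted. Members and lists were chosen with earlier results of these data known. The alternatives were DESeq2 1.42.0 size factors and Wald test, library size scaling, other filters, a replicate block, leaving out libraries and summing copies.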

Additional observations from a re-analysis of the deposited data

Results flagged for a closer look

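The 8 h response of STAG3L2 to 8AA differed between the cell lines, by the test of the difference itself. The MV4-11 value less the KG-1a value was -0.61 on the log2 scale (edgeR, adjusted p = 0.00148), from -0.10 in MV4-11 and 0.54 in KG-1a. It was called under every alternative run on it. Of all genes, 11.1% were called in this comparison, and 1 of the 6 members was. Both 8AA libraries of KG-1a were above both untreated ones and both of MV4-11 below.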

How the results depend on the processing

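Each comparison was refitted with the other scalings, filters and tests and without each library. At 24 h all 270 alternative values of the members' changes stayed above 0. The set was chosen on 24 h values, so this describes the processing and lends the rises no support. The number of members called stayed within 1.5 times the reported one in 153 of 163 refits. Among the exceptions, the count between 8AA and 8CA in KG-1a at 24 h was 0 with the DESeq2 Wald test and 2 with the replicate block, which added STAG3L4 (-0.25). The line difference of the 8 h 8AA response had 3 members called with no filter on low counts and 3 when every library had to hold 10 reads, against 1. Leaving out libraries gave 1 to 4 members for 8AA in MV4-11 at 24 h, 0 to 2 and 0 to 1 for 8AA against 8CA in KG-1a at 8 h and 24 h, and 1 to 2 for that line difference.

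Changes that crossed 0 were not called. Without a library, 8 h changes with 8CA in MV4-11 spanned -0.12 to 0.00239 for STAG3L2, -0.13 to 0.17 for STAG3L3 and -0.36 to 0.12 for GTF2IRD2B, and with 8AA -0.0834 to 0.20 for STAG3L4 and -0.13 to 0.75 for GTF2IRD2. With 8CA in KG-1a they spanned -0.11 to 0.35 for STAG3L1 and -0.0133 to 0.30 for GTF2IRD2. Summing copies gave the 8 h sums other signs than single members in MV4-11, -0.00169 (STAG3L, 8CA), 0.12 (GTF2IRD2, 8CA) and -0.10 (STAG3L, 8AA), and 0.16 for the STAG3L sum between drugs in KG-1a at 24 h, where STAG3L4 was lower with 8AA. The GTF2IRD2B share difference spanned -2.48 to 2.84 percentage points between lines and -4.91 to 3.07 at 8 h. The causes were not tested.

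The replicate letters did not pair the libraries by label, and A minus B deviations of compared groups correlated between -0.13 and 0.25 over 12 pairs of groups. With the letter as a block, members called numbered 5 and 4 with 8CA and 8AA in MV4-11 at 24 h, and their number changed elsewhere only in the drug comparison above. A crossed pairing of untreated and 8AA libraries of KG-1a at 24 h, added after seeing the data, called 6 members, as without it. That comparison helped to choose the set, so the number lends it no support. Depth limits GTF2IRD2, GTF2IRD2B and STAG3L1, with 23 to 123 reads per library.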
